A study of Homo sapiens with 38 samples.

Results

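Polycomb repressive complex 2 (PRC2) was described through 8 of its genes, namely EZH2, EZH1, SUZ12, EED, MTF2, PHF19, JARID2 and AEBP2, which were taken as the rows of the deposited count table carrying these symbols. All 8 of 8 symbols were found among the 57133 genes of the table, and all 8 passed the filter on low counts, which 16674 genes passed. Gene expression was measured by QuantSeq, a method that sequences the 3′ end of polyadenylated RNA, in 38 libraries of Shef6, an established line of human embryonic stem cells that had been turned to the naive state by epigenetic resetting and adapted to a serum coating. Naive cells grew in PXGL (PXGLY in one label field), a medium that holds LIF and blocks the kinases MEK and PKC as well as tankyrase. They were sampled in experiment Ex1 on a serum coating (FBS at 10% diluted with DMEM) and on Geltrex, a basement membrane matrix, and again on Geltrex in experiment Ex2. The same cells were plated on Geltrex in N2B27, a serum-free basal medium, or in E8 or mTeSR, which are commercial media for conventional human pluripotent cells. In Ex1, N2B27 and E8 were sampled at days 2, 3, 4, 6 and 8, whereas sampling in mTeSR covered days 4, 6 and 8. In Ex2, N2B27, N2B27 with the tankyrase inhibitor XAV, and N2B27 with FGF2, XAV and activin A (FAX) were sampled at day 4. Each of these 19 groups held 2 libraries, so that naive cells had 6 libraries and N2B27 day 4 had 4 when both experiments were pooled. All libraries share 1 cell line, and replicates are called technical in some legends of the study and biological in another, so p-values measure only the spread between these libraries.

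PRC2 is a chromatin complex that places methyl groups on histone H3 and so helps to keep developmental genes silent. EZH2 and EZH1 are alternative catalytic subunits, SUZ12 is the scaffold on which the complex assembles, and EED binds the methyl mark and stimulates the enzyme. The core joins 1 of several sets of accessory proteins: the Polycomb-like proteins MTF2 and PHF19 bring it to unmethylated CpG islands, while JARID2 and AEBP2 form another version of the complex that also recognises the ubiquitin mark placed by PRC1. In pluripotent cells PRC2 is best known for holding the promoters of HOX and other lineage genes, and leaving the naive state is accompanied by a change in where its mark lies.

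Library totals ran from 3038046 to 5612354 counts with a median of 4427277, and the correlation between the replicates of a group ran from 0.965 to 0.986 over log2 CPM of the tested genes. Levels are given as CPM, which are counts scaled to a common library total after TMM normalisation. Since QuantSeq counts the ends of transcripts, levels are compared between libraries and not between genes. Counts per library ran from 27 to 111 for EZH1, from 80 to 312 for PHF19, from 132 to 451 for EED and from 180 to 347 for AEBP2. They were higher for SUZ12 (487 to 1661), EZH2 (354 to 1411), MTF2 (450 to 1171) and JARID2 (834 to 8362). EZH1 therefore carried the largest counting error. The pseudogene copy SUZ12P1 had 65 to 165 counts, so that reads shared with SUZ12 may have been divided between the rows, whereas EZH2P1 and the antisense transcript JARID2-AS1 never had more than 1 count. Markers of both states were checked against the labels. The summed level of 7 naive markers was 1132 to 1519 CPM in naive libraries and 338 to 450 CPM in the day 8 libraries, and that of 5 primed markers was 18.7 to 24.0 CPM in naive libraries and 472 to 555 CPM at day 8. In bulk libraries such as these, fewer cells with a transcript and less RNA per cell cannot be told apart.

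The genes lie on different chromosomes except for a pair on chromosome 17 (GENCODE positions on GRCh38). EZH2 lies at chr7:148807257-148884321 and EZH1 at chr17:42700275-42745049, both on the minus strand. SUZ12 lies at chr17:31937007-32001038, EED at chr11:86201212-86278813, MTF2 at chr1:93079235-93139079, JARID2 at chr6:15246069-15522042 and AEBP2 at chr12:19404045-19720801, all on the plus strand. PHF19 lies at chr9:120855651-120894896 on the minus strand. The promoter windows of JARID2 and SUZ12 are printed here because these genes had the largest rise and the largest fall among the 8 when naive cells were left behind. Each window holds the 250 bases before a RefSeq start site on GRCh38.p14, read 5′ to 3′ on the plus strand, and capitals mark matches to the motifs named below. The windows are chr6:15245819-15246068 and chr6:15248605-15248854 for the JARID2 starts and chr17:31936757-31937006 for SUZ12.
JARID2 start 1: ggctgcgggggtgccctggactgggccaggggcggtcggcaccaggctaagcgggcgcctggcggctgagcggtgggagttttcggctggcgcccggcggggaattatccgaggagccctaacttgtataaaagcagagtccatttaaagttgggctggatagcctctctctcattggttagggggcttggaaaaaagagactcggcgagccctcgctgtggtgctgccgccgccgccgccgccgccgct
JARID2 start 2: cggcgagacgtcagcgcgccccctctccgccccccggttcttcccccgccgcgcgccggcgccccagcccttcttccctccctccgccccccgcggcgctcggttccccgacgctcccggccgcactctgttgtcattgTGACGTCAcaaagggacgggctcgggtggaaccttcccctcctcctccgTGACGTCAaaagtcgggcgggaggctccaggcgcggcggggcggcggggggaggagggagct
SUZ12 start: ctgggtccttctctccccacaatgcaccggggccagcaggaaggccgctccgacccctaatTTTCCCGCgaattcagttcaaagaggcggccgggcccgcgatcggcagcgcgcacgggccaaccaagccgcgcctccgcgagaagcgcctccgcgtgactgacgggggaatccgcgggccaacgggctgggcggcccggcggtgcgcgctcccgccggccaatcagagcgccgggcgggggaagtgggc
All 8 genes had an entry in the RefSeq promoter table, with 11 promoters in all, and each equalled the genome sequence of that build. Their GC content ran from 51.2% (EED) to 79.6% (EZH2), against a median of 58% over 35116 promoters. Both strands were searched for 4 E2F-type motifs, TTTGGCGC, TTTCCCGC, TTTCGCGC and TTTGCCGC, because E2F factors are textbook regulators of EZH2 and EED. A match stood in 4 of the 11 promoters, those of SUZ12 (TTTCCCGC, position -189 from the start), EZH1 (TTTGCCGC, -115, on the strand opposite to the gene), PHF19 (TTTCCCGC, -152, also opposite to the gene) and AEBP2 (TTTGCCGC, -150), while 2.79% of all promoters hold at least 1 of the 4. The promoters of EZH2 and EED, the genes that prompted the search, held none. Each of the 4 motifs contains CG. The 4 promoters with a match had 23 to 39 CG dinucleotides, against a median of 11 over all promoters. The share of 2.79% is therefore not matched for CG content. The second JARID2 window held the palindrome TGACGTCA, the CREB-type motif, at positions -111 and -62. This motif was searched for after the sequence had been read, and 1.65% of all promoters hold it at least once. A match describes these letters only, and no binding was measured.

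**Figure D1:**
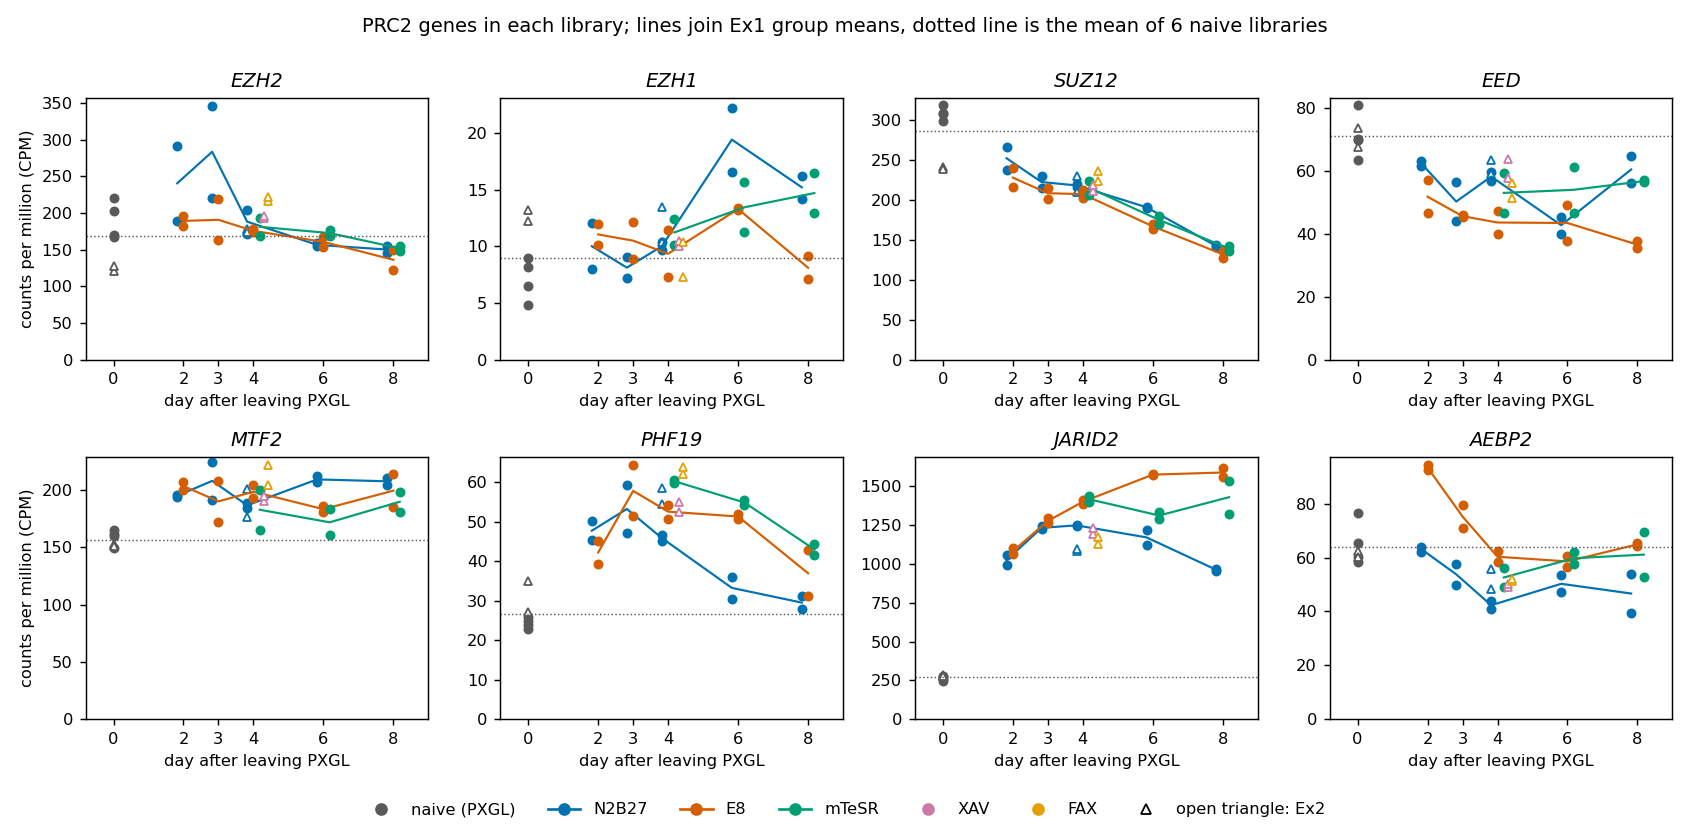
Level of each PRC2 gene in CPM (y axis) by day after leaving PXGL (x axis), with 1 point per library, colours for media, open triangles for Ex2, lines through the Ex1 group means and a dotted line at the mean of the 6 naive libraries. JARID2 lies between 246 and 284 CPM in naive libraries and between 955 and 1619 CPM in all others, and SUZ12 declines with time in each medium.

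The first question was which PRC2 genes differ from naive cells once PXGL is withdrawn. JARID2 rose in all 15 combinations of medium and day, by 3.58-fold to 5.92-fold. SUZ12 fell in 14 of 15 and EED in 12 of 15, while PHF19 rose in 13 and MTF2 in 13. EZH2 passed the test in N2B27 at days 2 and 3 only, EZH1 in 4 of the 15 comparisons and AEBP2 in 5, with 1 rise and 4 falls. In total 78 of the 120 pairs of gene and comparison passed, 48 upwards and 30 downwards. Here a gene "passed" when its Benjamini-Hochberg adjusted p from edgeR's quasi-likelihood test over 16674 genes was under 0.05, and was "called" when its log2 fold change was also above 1 in size, and all adjusted p-values below come from that test unless another is named. Of the 78, 46 passed in every one of the other settings and with each compared library left out in turn: 15 of 15 for JARID2, 12 of 13 for PHF19, 9 of 14 for SUZ12, 5 of 12 for EED, 3 of 13 for MTF2, 1 of 5 for AEBP2, 1 of 4 for EZH1 and 0 of 2 for EZH2.

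These counts were read against all genes tested, because leaving the naive state moved a large share of the transcriptome. In N2B27, 4, 6, 6, 6 and 5 of the 8 genes passed at days 2, 3, 4, 6 and 8, where 35.3%, 33.2%, 42.4%, 44.7% and 45.1% of all genes did. In E8 the numbers were 6, 5, 5, 5 and 5 of 8, against 47.2%, 35.3%, 40.5%, 42.3% and 49.9% of all genes. In mTeSR 4, 5 and 6 of 8 passed at days 4, 6 and 8, against 38%, 42.1% and 45.4%, and in XAV and FAX 5 of 8 passed, against 33.4% and 34.1%. With 8 genes this is a description only. With a library score as covariate, which follows the leading direction of differences between replicates, 2 of 8 passed in N2B27 at day 2 and 3 of 8 in E8 at day 2, and fits to the compared libraries alone gave 2 to 5 of 8 over the 15 comparisons. The score was lowest in N2B27 day 2 replicate 2 (-2.71) and both E8 day 2 libraries (-2.55 and -2.56). Called genes were JARID2 in all 15 comparisons, PHF19 in 6, SUZ12 in 3 and EZH1 in 1, 25 pairs in all. By comparison, 1, 2, 1, 2 and 2 of the 8 genes were called in N2B27 (all genes 16.2%, 15.6%, 18.4%, 23.1% and 23.9%) and 1, 2, 1, 1 and 2 in E8 (24.6%, 17.8%, 20.8%, 23.3% and 27.5%). In mTeSR 2 of 8 were called at each of days 4, 6 and 8 (19.8%, 22.5% and 25.1%), as in XAV (17%) and FAX (17.1%). The median log2 difference over the 8 genes lay between -0.044 and 0.36 in the 15 comparisons, where the median over all genes lay between -0.031 and 0.02.

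**Figure D2:**
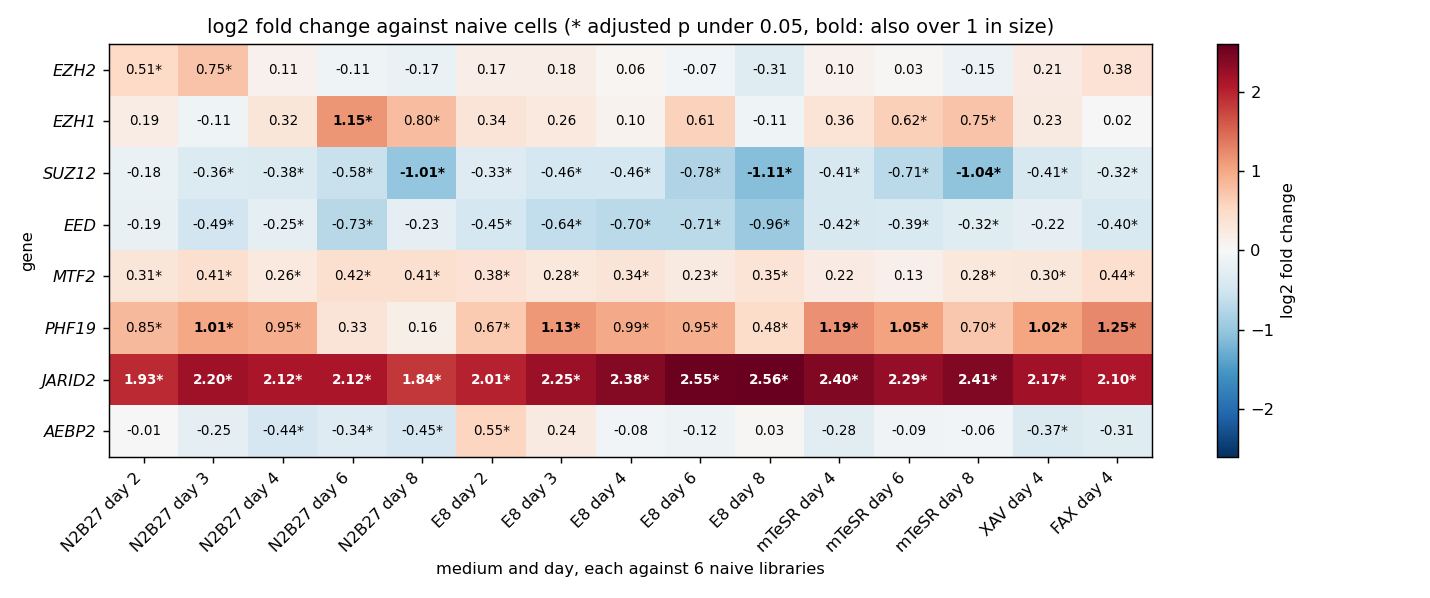
Log2 fold change of each PRC2 gene (rows) in each medium and day (columns) against the 6 naive libraries, with red for higher, blue for lower, an asterisk for an adjusted p under 0.05 and bold for a log2 fold change also above 1 in size. The JARID2 row is red throughout (1.84 to 2.56), the SUZ12 and EED rows are blue, and the EZH2 row is pale except in N2B27 at days 2 and 3.

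EZH2, the main methyltransferase of proliferating cells, stayed in most conditions within the range of its naive libraries when both experiments were pooled. The 6 naive libraries had a lowest value of 121, a median of 168 and a highest value of 220.5 CPM. In N2B27 the libraries had 189 and 292 CPM at day 2, 346 and 221 at day 3, 205 and 172 (Ex1) and 178 and 175 (Ex2) at day 4, 159 and 155 at day 6 and 155 and 145 at day 8. The high values came from 1 library at day 2 and 1 at day 3, and only at day 3 did the N2B27 libraries lie above all naive ones. EZH2 rose in N2B27 by 0.51 ± 0.17 (log2 ± SE, edgeR adjusted p = 0.016) at day 2 and by 0.75 ± 0.16 (adjusted p = 0.000534) at day 3. Both rises rest on single libraries: without replicate 2 of day 2 the log2 difference was 0.17 (adjusted p = 0.622), and without replicate 1 of day 3 it was 0.39 (adjusted p = 0.21). In E8 the libraries had 183 and 195 CPM at day 2, 219 and 163 at day 3, 178 and 174 at day 4, 154 and 167 at day 6 and 123 and 149.7 at day 8. In mTeSR they had 169 and 193, 177 and 168 and 155 and 149 CPM at days 4, 6 and 8. All of these lay inside the naive range of 120.5 to 220.5 CPM, whose lower end is set by the Ex2 libraries, while the day 8 libraries of all 3 media, all of Ex1, lay below the 4 naive libraries of Ex1 (167 to 220.5 CPM). The day 6 libraries of N2B27 did so too, and those of E8 narrowly (up to 167.16 against 167.18 CPM). All Ex2 libraries of day 4 lay above both naive libraries of Ex2. At day 8 the log2 differences from naive cells were -0.17, -0.31 and -0.15 in N2B27, E8 and mTeSR (adjusted p = 0.461, 0.146 and 0.507). Against the naive libraries of Ex1 alone, however, the day 8 differences were -0.33, -0.47 and -0.31 (adjusted p = 0.0504, 0.00567 and 0.0673), so that the E8 fall passed.

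EZH1, the less active paralogue that is prominent in non-dividing cells, was the most weakly counted of the 8. Its naive libraries had a lowest value of 4.86, a median of 8.56 and a highest value of 13.2 CPM. In N2B27 it had 7.98 and 12.1 CPM at day 2, 9.07 and 7.19 at day 3, 9.67 and 10.4 (Ex1) and 13.5 and 10.4 (Ex2) at day 4, 16.6 and 22.3 at day 6 and 16.2 and 14.2 at day 8. The day 6 and day 8 libraries lay above every naive library, and the earlier ones overlapped them. EZH1 rose by 1.15 ± 0.24 (log2 ± SE, edgeR adjusted p = 0.000198), or 2.22-fold, at day 6 and by 0.80 ± 0.25 (adjusted p = 0.00893) at day 8, the latter with an adjusted p of 0.0996 without N2B27 day 8 replicate 1. In mTeSR the libraries had 10.1 and 12.4 CPM at day 4, 11.2 and 15.7 at day 6 and 12.98 and 16.4 at day 8. Those of each day overlapped the naive range, whose upper end is set by the Ex2 libraries. The differences passed at day 6 (0.62, adjusted p = 0.0499) and day 8 (0.75, adjusted p = 0.0191), but the first was lost without any of the 4 naive libraries of Ex1 (adjusted p = 0.0612 to 0.113) or without mTeSR day 6 replicate 2 (0.36, adjusted p = 0.477) and the second without mTeSR day 8 replicate 2 (0.57, adjusted p = 0.233). In E8 EZH1 had 11.98 and 10.1, 12.2 and 8.85, 11.4 and 7.27, 13.2 and 13.4 and 7.09 and 9.15 CPM at days 2, 3, 4, 6 and 8. No E8 day passed against the 6 naive libraries, and at day 8 the difference was small (-0.11, adjusted p = 0.764).

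SUZ12, the scaffold without which the complex does not hold together, declined through the course in every medium. The naive libraries had a lowest value of 238, a median of 303 and a highest value of 318 CPM, with the Ex1 libraries at 299 to 318 CPM and the Ex2 libraries at 241 and 238 CPM. In N2B27 the libraries had 237 and 266 CPM at day 2, 230.0 and 214 at day 3, 216 and 219.6 (Ex1) and 230.1 and 209.8 (Ex2) at day 4, 190.1 and 191 at day 6 and 143 and 140.3 at day 8. From day 3 on every N2B27 library lay below every naive library. In E8 the values were 239 and 216, 215 and 201, 212 and 202, 164 and 169 and 136 and 127 CPM at days 2, 3, 4, 6 and 8, and in mTeSR they were 223 and 206, 179 and 170.1 and 142 and 136 CPM at days 4, 6 and 8. Only the E8 day 2 libraries, 1 of which lay inside the naive range, overlapped naive cells in these media. At day 8 SUZ12 had fallen by 2.01-fold in N2B27 (log2 -1.01 ± 0.10, edgeR adjusted p = 5.99e-10), 2.17-fold in E8 (-1.11 ± 0.10, adjusted p = 6.49e-11) and 2.05-fold in mTeSR (-1.04 ± 0.10, adjusted p = 4.11e-10), the only falls among the 8 genes past a log2 fold change of 1. The N2B27 day 2 difference did not pass (-0.18, adjusted p = 0.148), whereas against the naive libraries of Ex1 alone it was -0.29 (adjusted p = 0.003). The E8 day 2 fall (-0.33, adjusted p = 0.00763) was lost without E8 day 2 replicate 2 (-0.22, adjusted p = 0.237) and the N2B27 day 3 fall (-0.36, adjusted p = 0.00446) without N2B27 day 3 replicate 2 (-0.31, adjusted p = 0.0739).

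EED, the reader of the methyl mark within the core, was lower than in naive cells in most conditions and lowest in E8. The naive libraries had a lowest value of 63.5, a median of 70.1 and a highest value of 81.1 CPM. In E8 the libraries had 46.5 and 57.2, 46.1 and 45.3, 39.9 and 47.4, 37.8 and 49.2 and 35.4 and 37.8 CPM at days 2, 3, 4, 6 and 8, all below every naive library. The day 8 fall was -0.96 ± 0.14 (log2 ± SE, edgeR adjusted p = 5.73e-07), or 1.94-fold, and the days 3, 4 and 6 falls were -0.64, -0.70 and -0.71. In N2B27 the libraries had 61.6 and 63.4 CPM at day 2, 44.1 and 56.5 at day 3, 59.6 and 57.0 (Ex1) and 59.2 and 63.5 (Ex2) at day 4, 45.5 and 40.1 at day 6 and 64.9 and 56.1 at day 8. The day 8 libraries overlapped the naive range again, and the log2 differences were -0.73 (adjusted p = 3.85e-05) at day 6 and -0.23 (adjusted p = 0.147) at day 8. In mTeSR the libraries had 59.6 and 46.6, 46.7 and 61.4 and 57.1 and 56.6 CPM at days 4, 6 and 8, below all naive libraries, with log2 differences of -0.42, -0.39 and -0.32. Several of the EED falls that passed were marginal. N2B27 day 4 (adjusted p = 0.048) was lost without any of 8 of the 10 compared libraries (up to 0.118) and mTeSR day 8 (adjusted p = 0.0481) without any of 6 of 8 (up to 0.192). N2B27 day 3 was lost without its replicate 1 (-0.33, adjusted p = 0.188), E8 day 2 without its replicate 1 (-0.29, adjusted p = 0.21), mTeSR day 4 without its replicate 2 (-0.25, adjusted p = 0.292) and mTeSR day 6 without its replicate 1 (-0.21, adjusted p = 0.379).

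MTF2, the Polycomb-like protein best known from embryonic stem cells, was slightly higher after exit from PXGL, at 1.17-fold to 1.36-fold where it passed. The naive libraries had a lowest value of 149, a median of 156 and a highest value of 165 CPM. In N2B27 the Ex1 libraries had 194 and 196, 225 and 191, 184 and 189, 212 and 206 and 204 and 211 CPM at days 2, 3, 4, 6 and 8. In E8 they had 207 and 200.05, 208 and 172, 204 and 193, 186 and 180.3 and 214 and 185 CPM, and in mTeSR 200.02 and 165, 183 and 160.2 and 198 and 181 CPM at days 4, 6 and 8. Only the mTeSR day 6 libraries overlapped the naive range, and the highest group was FAX, with 204 and 222 CPM. The differences with the smallest adjusted p-values were those of FAX (0.44 ± 0.092, edgeR adjusted p = 0.000247), N2B27 day 6 (0.42 ± 0.092, adjusted p = 0.00034) and N2B27 day 8 (0.41 ± 0.092, adjusted p = 0.000427), and these were the 3 that passed in every setting. Those of mTeSR days 4 and 6 did not pass (0.22 and 0.13, adjusted p = 0.0598 and 0.267). Of the other 10, E8 day 6 (adjusted p = 0.0499) was lost without any of 7 of the 8 compared libraries and XAV (0.0122) without either XAV library. N2B27 day 2 was lost without its replicate 2 (adjusted p = 0.077), and N2B27 day 3, E8 days 3, 4 and 8 and mTeSR day 8 without their replicate 1 (adjusted p = 0.101, 0.495, 0.0716, 0.117 and 0.206).

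PHF19, the other Polycomb-like protein, was higher than in naive cells at the first day sampled in every medium, and in N2B27 its later differences did not pass. The naive libraries had a lowest value of 22.9, a median of 25.3 and a highest value of 35.0 CPM, the highest being 1 of the Ex2 libraries. In N2B27 the libraries had 45.3 and 50.1 CPM at day 2, 47.1 and 59.3 at day 3, 46.6 and 44.998 (Ex1) and 58.4 and 54.5 (Ex2) at day 4, 30.5 and 35.9 at day 6 and 27.9 and 31.1 at day 8. Days 2 to 4 lay above every naive library, while days 6 and 8 overlapped them through that 1 Ex2 library, naive Geltrex replicate 2 of Ex2, and lay above the other 5. The log2 differences were 0.85, 1.01 and 0.95 at days 2, 3 and 4 (edgeR adjusted p = 1.62e-05, 5.59e-07 and 2.2e-08), and 0.33 and 0.16 at days 6 and 8 (adjusted p = 0.0674 and 0.405). Without that library the day 6 rise passed (0.43, adjusted p = 0.00899) and the day 8 difference did not (0.28, adjusted p = 0.0993). In E8 the libraries had 45.1 and 39.2, 51.3 and 64.2, 50.8 and 54.2, 52.0 and 50.6 and 31.1 and 42.7 CPM at days 2, 3, 4, 6 and 8, and in mTeSR 59.8 and 60.6, 54.2 and 55.4 and 44.4 and 41.5 CPM at days 4, 6 and 8. All but E8 day 8 replicate 1 lay above the naive range. Against the 6 naive libraries the largest rises were 2.37-fold in FAX (1.25 ± 0.14, adjusted p = 5.91e-09) and 2.27-fold in mTeSR at day 4 (1.19 ± 0.14, adjusted p = 1.34e-08). The naive means were 31.1 CPM in Ex2, the experiment of FAX, and 23.9 (serum) and 24.8 CPM (Geltrex) in Ex1. The order of these rises therefore rests on the pooled naive libraries. The E8 day 8 rise of 0.48 (adjusted p = 0.00695) was lost without E8 day 8 replicate 2 (0.24, adjusted p = 0.314).

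JARID2, an accessory subunit that helps to recruit the complex and stimulates its activity, showed the largest change of the 8. The naive libraries had a lowest value of 246, a median of 274 and a highest value of 284 CPM. In N2B27 the libraries had 992 and 1057 CPM at day 2, 1241 and 1224 at day 3, 1254 and 1244 (Ex1) and 1086 and 1098 (Ex2) at day 4, 1220.3 and 1122 at day 6 and 955 and 968 at day 8. The lowest of all libraries out of PXGL were those of N2B27 day 8, and even these stood far above the naive range. In E8 the libraries had 1099.7 and 1063, 1294 and 1261, 1389 and 1412, 1579 and 1572 and 1559 and 1619 CPM at days 2, 3, 4, 6 and 8, and in mTeSR 1398 and 1436, 1338 and 1286 and 1324 and 1537 CPM at days 4, 6 and 8. The group means in E8 were higher at each later day, whereas those of N2B27 in Ex1 were highest at days 3 and 4 and lowest at day 8. The N2B27 libraries of Ex2 at day 4 lay below both of day 6. At day 2 JARID2 was already 3.81-fold above naive cells in N2B27 (log2 1.93 ± 0.071, edgeR adjusted p = 5.91e-21) and 4.03-fold higher in E8 (2.01 ± 0.071, adjusted p = 1.67e-21). At day 8 it was 3.58-fold higher in N2B27, 5.92-fold in E8 and 5.32-fold in mTeSR (log2 1.84, 2.56 and 2.41, adjusted p = 5.41e-21, 3.57e-25 and 2.1e-24).

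AEBP2, the zinc finger protein that partners JARID2 in the same version of the complex, did not follow it. The naive libraries had a lowest value of 58.3, a median of 61.2 and a highest value of 76.5 CPM. In N2B27 the libraries had 62.2 and 64.1 CPM at day 2, 57.6 and 49.9 at day 3, 43.9 and 40.7 (Ex1) and 55.6 and 48.4 (Ex2) at day 4, 53.3 and 47.2 at day 6 and 39.5 and 53.8 at day 8. From day 3 on these lay below every naive library. The falls passed at day 4 (-0.44 ± 0.10, edgeR adjusted p = 0.000737), day 6 (-0.34, adjusted p = 0.0324) and day 8 (-0.45, adjusted p = 0.00592). Day 6 was lost without naive serum replicate 1 (adjusted p = 0.0698) or either of its own libraries (0.0583 and 0.285), and day 8 without N2B27 day 8 replicate 1 (-0.24, adjusted p = 0.272). In E8 the libraries had 92.3 and 94.5, 79.5 and 71.0, 62.4 and 58.2, 60.6 and 56.5 and 64.3 and 65.4 CPM at days 2, 3, 4, 6 and 8. Day 2 stood above all naive libraries, with a rise of 0.55 ± 0.13 (adjusted p = 0.00059), and the later days overlapped them. The E8 day 2 libraries had the lowest TMM factors of all 38 (0.903 and 0.904). With the library score as covariate the AEBP2 rise was 0.29 (adjusted p = 0.214), and EED and MTF2 at E8 day 2 no longer passed either (adjusted p = 0.155 and 0.258). In mTeSR the libraries had 56.3 and 48.9, 61.9 and 57.6 and 52.7 and 69.4 CPM at days 4, 6 and 8. Both day 4 libraries lay below the naive range, and no day passed against the 6 naive libraries. The day 4 difference of -0.28 (adjusted p = 0.096) passed against the naive libraries of Ex1 alone (-0.30, adjusted p = 0.0443) and with the covariate (-0.30, adjusted p = 0.0495).

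Proliferation genes were followed beside these changes because EZH2 is known to be expressed with cell division. The summed level of 17 proliferation genes was 3467 to 3807 CPM in naive libraries, 4105 to 4231 CPM in N2B27 at day 2, 4033 to 4242 CPM at day 3, and 3252 to 3473, 3076 to 3164 and 3153 to 3257 CPM at day 8 in N2B27, E8 and mTeSR. It was also above every naive library in FAX (4165 to 4218 CPM), XAV (4006 to 4129), E8 at day 3 (3901 to 3989) and mTeSR at day 4 (3838 to 3893). EZH2 passed in none of these against the 6 naive libraries, but it did in XAV and FAX against the naive libraries of Ex2 alone, as given below. At day 8, 7, 8 and 10 of the 17 fell in N2B27, E8 and mTeSR and the others did not pass edgeR's test, where 45.1%, 49.9% and 45.4% of all genes passed, counted in both directions. Of the 17, 6 rose and 2 fell in N2B27 at day 2 and at day 3, where 35.3% and 33.2% of all genes passed. Their part in the EZH2 and SUZ12 differences was not tested.

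Ratios within a library need no scaling between libraries and were used to compare the balance of alternative subunits. The number of EZH2 counts per EZH1 count ranged from 9.62 to 45.4 in the 6 naive libraries and from 9.03 to 17.3 in the 6 libraries of day 8. On the log2 scale, with a pseudocount of 0.5, the mean was 4.25 ± 0.86 (SD, n = 6) in naive cells and 3.57 ± 0.40 (SD, n = 6) at day 8, and the difference of -0.68 did not pass an exact two-sided permutation test (p = 0.0974, smallest possible p = 0.00216). By medium, the day 8 libraries had 16.4 and 17.3 EZH2 counts per EZH1 count in E8, 9.54 and 10.2 in N2B27 and 9.03 and 11.9 in mTeSR, or means of 4.06, 3.30 and 3.36 on the log2 scale, and these differences between media were not tested. The naive libraries of the experiments stood apart, at 20.5 to 45.4 in Ex1 and 9.62 to 9.83 in Ex2. With the naive libraries of Ex1 only, the experiment that holds all day 8 libraries, the difference was -1.17 (exact permutation p = 0.00952, smallest possible p = 0.00476), and without either naive library of Ex2 it was -0.87 or -0.88 (exact permutation p = 0.0433 for both). These permutation tests treat libraries as exchangeable, although those of a group are replicates of each other and the day 8 libraries come from different media. JARID2 counts per SUZ12 count, a ratio chosen after the values were seen and given without a test, ranged from 0.825 to 1.18 in naive libraries and from 3.97 to 12.7 in the others. It was highest in E8 at day 8 (11.5 and 12.7), followed by mTeSR at day 8 (9.32 and 11.3), while N2B27 at day 8 had 6.67 and 6.90.

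**Figure D3:**
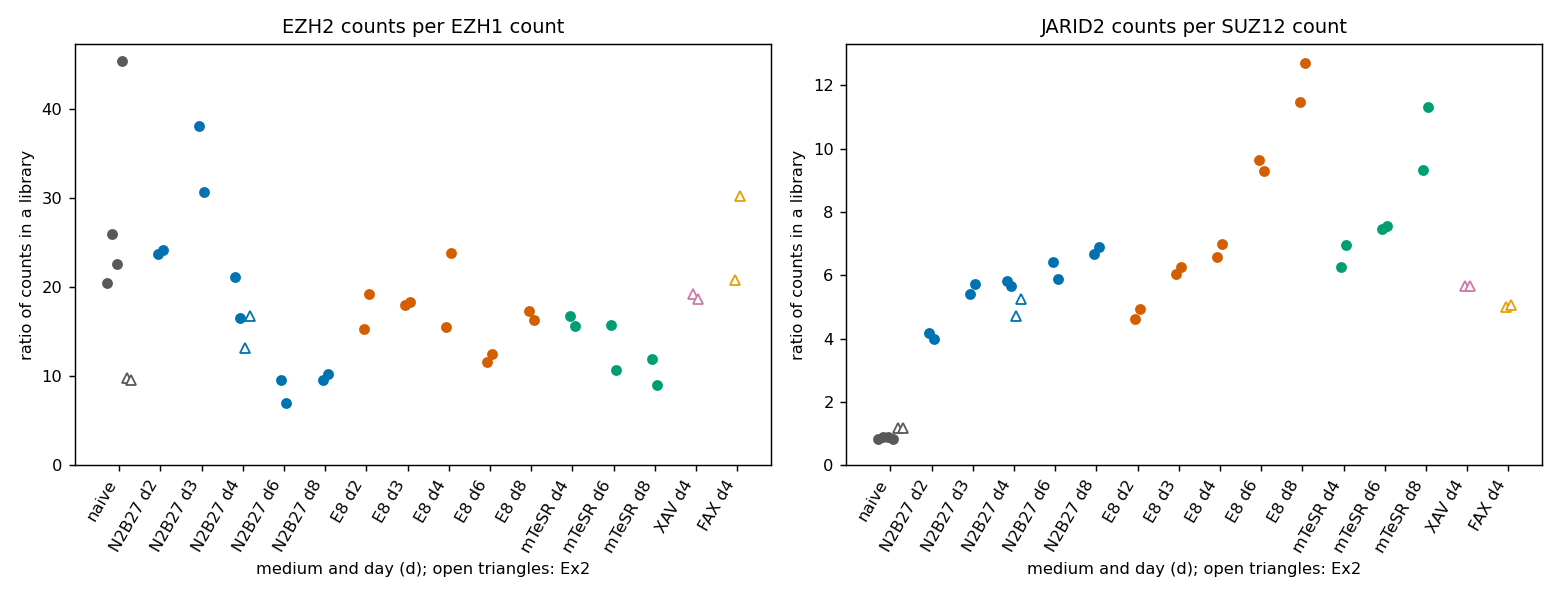
EZH2 counts per EZH1 count (left) and JARID2 counts per SUZ12 count (right) in each library, by medium and day on the x axis, with open triangles for Ex2. On the left the naive libraries split into 20.5 to 45.4 for Ex1 and 9.62 to 9.83 for Ex2, and on the right all naive libraries lie at or below 1.18 and all others at or above 3.97.

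The second question was whether the media differ at equal days, which 14 comparisons within an experiment addressed. JARID2 was higher than in N2B27 in E8 at days 6 and 8 and in mTeSR at day 8, EED was lower in E8 at day 8, PHF19 was higher in mTeSR and E8 at day 6, and AEBP2 was higher in E8 at 4 of 5 days. SUZ12 and MTF2 passed in none of the 14 comparisons. In total 15 of 112 pairs passed, 12 upwards and 3 downwards, with a largest log2 difference of -0.91 (EZH1). DESeq2 passed 15 pairs, 14 of them the same: for mTeSR against E8 it lost EZH1 at day 8 (0.86, adjusted p = 0.0768) and gained JARID2 at day 6 (-0.27, adjusted p = 0.00435). E8 against N2B27 gave 1, 2, 1, 2 and 4 of 8 genes at days 2, 3, 4, 6 and 8, where 13.7%, 6.06%, 7.93%, 15.9% and 19.3% of all genes passed. mTeSR against N2B27 gave 0, 1 and 2 of 8 at days 4, 6 and 8 (all genes 4.73%, 9.06% and 10.9%), and mTeSR against E8 gave 0, 0 and 2 (0.222%, 2.66% and 14.1%). Beside the counts of 0, 3 of 8 genes had an unadjusted p under 0.05 for mTeSR against N2B27 at day 4, 0 of 8 for mTeSR against E8 at day 4 and 1 of 8 at day 6, and DESeq2 passed 0, 0 and 1 genes in these comparisons.

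JARID2 gave the clearest differences between media. At day 6 the libraries had 1579 and 1572 CPM in E8 against 1220.3 and 1122 in N2B27, and at day 8 1559 and 1619 in E8 and 1324 and 1537 in mTeSR against 955 and 968 in N2B27. None of these groups overlapped. E8 exceeded N2B27 by 0.43 ± 0.077 at day 6 (log2 ± SE, edgeR adjusted p = 0.000213) and by 0.72 ± 0.078, or 1.65-fold, at day 8 (adjusted p = 3.13e-08), and mTeSR exceeded N2B27 by 0.57 ± 0.078, or 1.49-fold, at day 8 (adjusted p = 5.63e-06). All 3 passed in every setting and without each library. At day 6 mTeSR, with 1338 and 1286 CPM, differed from N2B27 by 0.16 (95% interval 0.012 to 0.32, adjusted p = 0.197). At days 2 to 4 the E8 differences were 0.052 to 0.17 and did not pass, and mTeSR and E8 differed at day 6 by -0.26 (95% interval -0.42 to -0.11, adjusted p = 0.061) and at day 8 by -0.15 (-0.30 to -0.001, adjusted p = 0.2). A test of the whole course, asking whether the difference between media changes over days, gave adjusted p = 0.000167 for JARID2 in E8 against N2B27, where 11% of all genes passed, and 0.0435 in mTeSR against N2B27, where 2.18% did. The second was lost without any of 10 of the 12 compared libraries, with the largest adjusted p of 0.421 without mTeSR day 8 replicate 2, and also with RLE scaling, plain library totals, the filter of more than 10 counts and no filter (0.0507 to 0.281). The course of the other 7 genes did not pass in either medium, the nearest being PHF19 (adjusted p = 0.0861) and EZH1 (0.0988) in E8.

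EED in E8 at day 8 had 35.4 and 37.8 CPM against 64.9 and 56.1 CPM in N2B27 and 57.1 and 56.6 CPM in mTeSR. The E8 libraries were the lowest of all 38 together with 1 library of E8 day 6. The difference from N2B27 was -0.72 ± 0.16 (edgeR adjusted p = 0.00127) and passed in every setting, and mTeSR exceeded E8 by 0.64 ± 0.16 (adjusted p = 0.00767), which was lost without E8 day 8 replicate 1 (0.097) or mTeSR day 8 replicate 2 (0.056). At day 6 PHF19 in mTeSR exceeded N2B27 by 0.72 ± 0.15 (adjusted p = 0.00159) in every setting, and E8 exceeded it by 0.62 (adjusted p = 0.00345, or 0.0719 without N2B27 day 6 replicate 1). Its day 8 difference between mTeSR and N2B27 (0.54, adjusted p = 0.0197) was lost without any of the 4 libraries (0.0557 to 0.157). AEBP2 was higher in E8 than in N2B27 by 0.57, 0.49, 0.51 and 0.47 at days 2, 3, 4 and 8 (adjusted p = 0.00517, 0.0275, 0.0167 and 0.014), with 0.22 (adjusted p = 0.304) at day 6. Each of the 4 was lost without at least 1 library, day 2 without N2B27 day 2 replicate 1 (0.0542), day 3 without either N2B27 day 3 library or E8 day 3 replicate 1 (0.0573 to 0.212), day 4 without any of its 4 (0.0517 to 0.166) and day 8 without N2B27 day 8 replicate 1 or E8 day 8 replicate 1 (0.296 and 0.0625).

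The catalytic subunits differed between media in 3 comparisons, none of which held without every library. EZH2 was lower in E8 than in N2B27 at day 3 (log2 difference -0.57, edgeR adjusted p = 0.0276), which became -0.19 (adjusted p = 0.666) without N2B27 day 3 replicate 1 and -0.37 (0.223) without E8 day 3 replicate 2. EZH1 was lower in E8 than in N2B27 at day 8 (-0.91, adjusted p = 0.015) and lower than in mTeSR, which exceeded E8 by 0.87 (adjusted p = 0.0341). The first was lost without N2B27 day 8 replicate 1 or E8 day 8 replicate 1 (0.109 and 0.18), and the second without E8 day 8 replicate 1 or either mTeSR library (0.0514 to 0.3). For SUZ12 the differences between media ran from -0.19 to 0.093, and at day 8 the 95% interval was -0.28 to 0.072 for E8 against N2B27 and -0.21 to 0.15 for mTeSR against N2B27.

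**Figure D4:**
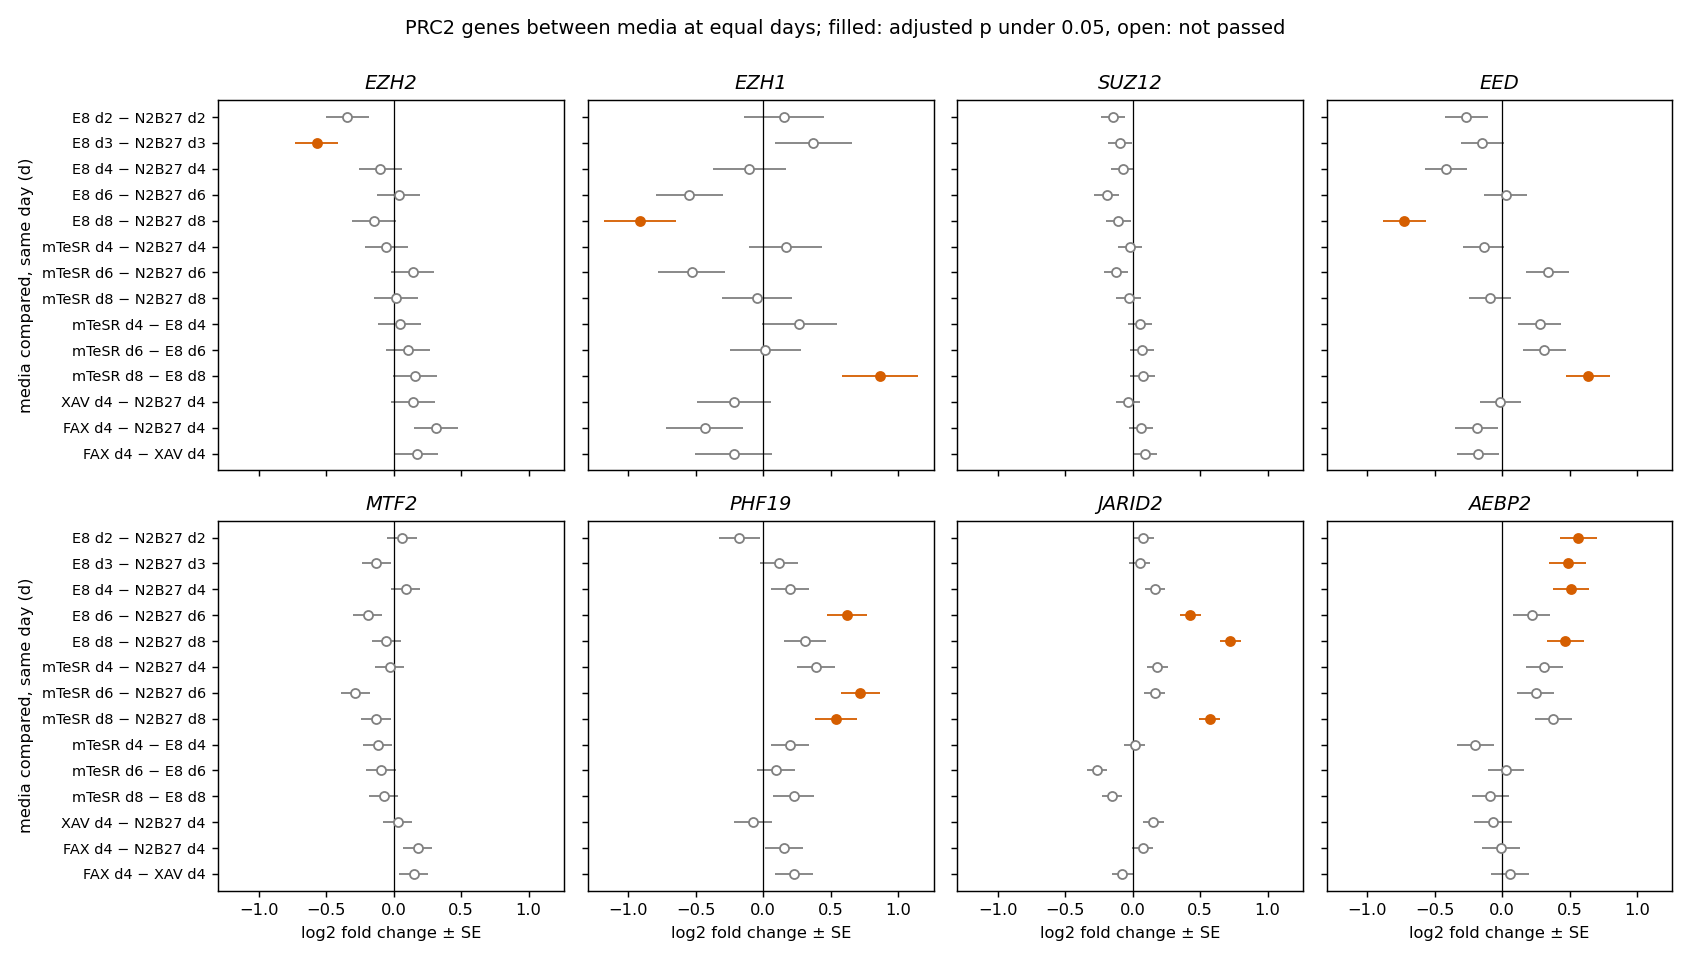
Log2 fold change with its SE (x axis) of each PRC2 gene between media at the same day (d, y axis), filled where the adjusted p was under 0.05 and open where it was not. SUZ12 lies close to 0 throughout (-0.19 to 0.093), while JARID2 moves to the right against N2B27 for E8 at days 6 and 8 and for mTeSR at day 8.

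Markers of other cell types also differed between these media at day 8. The summed level of 5 endoderm markers was 0.681 to 4.19 CPM in naive libraries, 151 to 170 CPM in N2B27, 18.1 to 22.6 CPM in E8 and 82.0 to 84.9 CPM in mTeSR at day 8, and all 5 of 5 were higher than in naive cells in each medium. That of 6 trophectoderm and amnion markers was 8.00 to 16.01 CPM in naive libraries, 74.6 to 91.9 CPM in N2B27, 15.9 to 19.5 CPM in E8 and 13.7 to 18.9 CPM in mTeSR. Of these 6, HAND1 was at 0 in all naive libraries and VTCN1 at 0 in both N2B27 day 8 libraries, and 5 were tested. Against naive cells 4 rose in N2B27, 2 rose and 2 fell in E8, and 1 rose and 1 fell in mTeSR. GATA3 made up most of the E8 sum, with 12.5 ± 3.20 CPM (SD, n = 2). The summed level of 5 fibroblast markers was 1.959 to 4.43 CPM in naive libraries and 161 to 171, 99.8 to 102 and 131 to 148 CPM in N2B27, E8 and mTeSR at day 8. COL1A2 made up most of it, with means of 139.5, 64.3 and 121 CPM. COL1A1 had another order, with means of 22.5, 36.3 and 18.7 CPM, and of the 3 fibroblast markers tested 1 was higher and 2 were lower in E8 than in N2B27. DCN was at 0 in both N2B27 libraries, COL3A1 in both E8 libraries, and LUM and DCN in both mTeSR libraries. The N2B27 cultures thus had the highest sums of all 3 lists at day 8, that of the fibroblast list through COL1A2, when JARID2 was lower there than in E8 and mTeSR. Their part in the differences between media was not tested.

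In Ex2 the additions XAV and FAX were compared with N2B27 at day 4. SUZ12 had 211 and 218 CPM in XAV, 235 and 223 in FAX and 230.1 and 209.8 in N2B27, and JARID2 had 1192 and 1234, 1175 and 1126 and 1086 and 1098 CPM. EZH2 had 193 and 196, 217 and 221 and 178 and 175 CPM, so that its FAX libraries lay above the others. PHF19 had 54.96 and 52.4, 62.0 and 63.7 and 58.4 and 54.5 CPM, EED 57.8 and 63.9, 56.4 and 51.4 and 59.2 and 63.5 CPM and AEBP2 48.9 and 50.03, 51.3 and 51.9 and 55.6 and 48.4 CPM. PHF19 was highest and EED lowest in FAX, and for AEBP2 the N2B27 libraries spanned those of the additions. By edgeR 0 of 8 genes passed for XAV against N2B27, FAX against N2B27 and FAX against XAV, where 1.34%, 0.846% and 0.012% of all genes passed, and 0 of 8 had an unadjusted p under 0.05 in each. DESeq2 also passed 0 in each, while the fit to the compared libraries alone passed 1 gene between FAX and N2B27, EZH2 (0.31, adjusted p = 0.00289). Between FAX and N2B27 the log2 difference was 0.31 for EZH2 (95% interval -0.0019 to 0.63, adjusted p = 0.613) and -0.43 for EZH1 (-0.99 to 0.13, adjusted p = 0.764). For JARID2 the intervals were -0.00014 to 0.30 for XAV and -0.077 to 0.23 for FAX. These intervals show how large a difference could have been missed.

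Between consecutive days JARID2 moved by -0.28 to 0.27 on the log2 scale, against 1.93 and 2.01 from naive cells to day 2 in N2B27 and E8. For other genes a later step could exceed the first: SUZ12 in N2B27 differed by -0.18 at day 2, which did not pass, and fell by more from day 6 to day 8, and EZH1 differed by 0.19 at day 2, which did not pass, and rose by more from day 4 to day 6. In total 12 of 80 pairs passed, 4 upwards and 8 downwards, and 0 passed without each library and in all other settings. The steps that passed follow with the log2 difference and then the adjusted p in brackets. SUZ12 fell in 5 steps, namely N2B27 days 6 to 8 (-0.43, edgeR adjusted p = 0.00358), E8 days 4 to 6 (-0.31, 0.0269) and 6 to 8 (-0.34, 0.0384), and mTeSR days 4 to 6 (-0.30, 0.0305) and 6 to 8 (-0.33, 0.046). Its largest adjusted p with 1 library left out was 0.0553 for the N2B27 step, without N2B27 day 8 replicate 2, and 0.217 to 0.334 for the other 4 steps, which left the threshold without 3 or 4 of their 4 libraries. JARID2 rose from day 2 to day 3 in N2B27 (0.27, 0.0236) and E8 (0.24, 0.0265) and fell from day 6 to day 8 in N2B27 (-0.28, 0.0322). With 1 library left out these reached 0.119, 0.2 and 0.264. PHF19 rose from day 2 to day 3 in E8 (0.46, 0.0284) and fell from day 4 to day 6 in N2B27 (-0.46, 0.0341), with up to 0.348 and 0.242 when 1 library was left out. EZH2 fell from day 3 to day 4 in N2B27 (-0.59, 0.0322), which was -0.21 (0.794) without the high library of day 3, replicate 1. EZH1 rose from day 4 to day 6 in N2B27 (0.96, 0.00923, up to 0.19 without N2B27 day 6 replicate 2). For the background, 10.7%, 3.36%, 12.5% and 3.58% of all genes passed in the successive N2B27 steps (1, 1, 2 and 2 of 8 members), 21.4%, 1.97%, 6.85% and 2.49% in the E8 steps (2, 0, 1 and 1 of 8) and 8.83% and 2.23% in the mTeSR steps (1 and 1 of 8). In the E8 step with 0, days 3 to 4, 1 of 8 had an unadjusted p under 0.05 by edgeR and 0 passed by DESeq2.

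Naive cells on Geltrex were compared with naive cells on the serum coating because the study takes up the PRC2 mark on these coatings. It cites a report of a raised mark in naive primate cells expanded on Geltrex. By staining, the study itself could not detect a rise of the mark on the serum coating. EZH2 had 202 and 220.5 CPM on Geltrex against 167 and 169.5 CPM on serum, with both Geltrex libraries higher. SUZ12 had 318 and 299 against 307 and 308 CPM, EED 63.5 and 81.1 against 70.4 and 69.9 CPM and JARID2 278 and 246 against 258 and 272 CPM, all overlapping. By edgeR 0 of 8 genes passed, where 29 genes or 0.174% of all did, 1 of 8 had an unadjusted p under 0.05, and DESeq2 passed 0. The gene with the unadjusted p under 0.05 was EZH2, at 0.33 (95% interval 0.016 to 0.64, adjusted p = 0.35). AEBP2 had -0.26 (-0.52 to 0.0017, adjusted p = 0.38), and the intervals of SUZ12 and JARID2 were -0.17 to 0.17 and -0.17 to 0.14. With 2 libraries a side, a difference inside these intervals was not detectable, and no histone mark was measured here.

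The conditions sampled in both experiments show how these genes differed between experiments. Naive cells on Geltrex in Ex2 had 121 and 127 CPM of EZH2, 12.3 and 13.2 of EZH1 and 241 and 238 of SUZ12, against 202 and 220.5, 8.95 and 4.86 and 318 and 299 in Ex1. For each of the 3 genes the groups did not overlap. The labels place these Ex2 libraries at day 0, but their library names carry day 4, and whether they had been kept on Geltrex for longer than those of Ex1 is not given. The log2 difference of Ex2 from Ex1 was -0.77 ± 0.17 for EZH2 (edgeR adjusted p = 0.00149), which passed in every setting, 0.91 ± 0.29 for EZH1 (adjusted p = 0.0318) and -0.36 ± 0.088 for SUZ12 (adjusted p = 0.00437), so 3 of 8 passed where 15.2% of all genes did. EZH1 was lost without naive Geltrex Ex1 replicate 2 (0.41) or either Ex2 library (0.0935 and 0.178), and SUZ12 without naive Geltrex Ex1 replicate 1 (0.0541). For N2B27 at day 4, 0 of 8 passed where 3.87% of all genes did, 3 of 8 had an unadjusted p under 0.05 by edgeR and DESeq2 passed 0, while JARID2 passed with plain library totals (-0.26, adjusted p = 0.0408) and in a fit holding just these libraries (-0.19, adjusted p = 0.0182). The change from naive Geltrex cells to N2B27 day 4 was compared between experiments after these values had been seen, and 11.7% of all genes passed: the difference was 0.38 ± 0.12 for SUZ12 (adjusted p = 0.0437) and 0.67 ± 0.23 for EZH2 (adjusted p = 0.0523).

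For XAV and FAX, sampled in Ex2 only, the choice of naive libraries decided whether some genes passed. Against all 6 naive libraries EZH2 differed by 0.21 and 0.38 in XAV and FAX (edgeR adjusted p = 0.377 and 0.0822). Against the naive libraries of Ex2 alone it was higher by 0.65 and 0.82 (adjusted p = 0.00213 and 0.000169). SUZ12 went the other way: its falls of -0.41 and -0.32 (adjusted p = 0.00133 and 0.0118) became -0.16 and -0.065 (adjusted p = 0.163 and 0.596). The FAX fall of SUZ12 was also lost without either FAX library (0.0542 and 0.145), as was that of EED in FAX (0.0623 and 0.202), while the AEBP2 fall in XAV (-0.37, adjusted p = 0.0296) was -0.31 (adjusted p = 0.0861) against the naive libraries of Ex2 alone and was also lost without naive serum replicate 1 (0.0613) or either XAV library (0.173 and 0.136). For the Ex1 media, EZH1 passed at 3 further points against the naive libraries of Ex1 alone, E8 days 2 and 6 and mTeSR day 4 (0.65, 0.92 and 0.67, adjusted p = 0.0453, 0.00197 and 0.0286). AEBP2 in mTeSR at day 4, given above, and PHF19 in N2B27 at day 6 also passed there (for PHF19 0.45, adjusted p = 0.00569).

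Across the 16 combinations of medium and day, ordered by mean level, most neighbours overlapped. E8 day 8 was the lowest for EZH2, EZH1, SUZ12 and EED and the highest for JARID2. Naive cells were the highest for SUZ12 and EED and the lowest for JARID2, MTF2 and PHF19. N2B27 day 3 was the highest for EZH2 and N2B27 day 6 for EZH1, E8 day 2 was the highest and N2B27 day 8 the lowest for AEBP2, and FAX was the highest for MTF2 and PHF19. Of the 15 neighbouring pairs in each order, the ranges of libraries overlapped in 15 for MTF2, 14 for EZH2, 13 each for EZH1, EED, PHF19 and AEBP2, 10 for SUZ12 and 8 for JARID2. The levels were sorted by the same means, and this count was not made over all genes. It therefore describes these 8 genes only.

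Group means of log2 CPM over the 19 groups were used to describe which genes moved alike, with no test, since the groups share 1 cell line and the naive groups stand apart from the rest. Among the 8 genes, JARID2 ran with PHF19 (Pearson r = 0.75, Spearman rho = 0.47) and MTF2 (0.75 and 0.11) and against EED (-0.73 and -0.75) and SUZ12 (-0.67 and -0.76). SUZ12 ran with EED (0.59 and 0.66) and EZH2 (0.50 and 0.58), and EZH2 against EZH1 (-0.49 and -0.52). AEBP2 ran weakly against EZH1 (-0.23 and -0.26), and its Pearson r with each of the other 6 was smaller in size. Among 7136 genes with a mean of at least 20 CPM, those most like each member were GLI2 and SEPT6 for JARID2 (r = 0.99 for both), CBFA2T2 and HENMT1 for SUZ12 (0.96 and 0.95), STOM and COMMD7 for PHF19 (0.94 and 0.91), ATMIN and UBAP2L for EZH2 (0.92 and 0.85), RPL5P4 and B4GALT4 for AEBP2 (0.89 and 0.86), HBP1 and ARHGAP29 for MTF2 (0.87 and 0.86), CDCA4 and PIP4K2C for EED (0.86 for both) and SLC4A7 and TRAF3IP2 for EZH1 (0.85 for both).

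Other genes of the Polycomb system were counted at day 8 against naive cells, where 45.1%, 49.9% and 45.4% of all genes passed in N2B27, E8 and mTeSR. The number of a list that passed is given beside these shares and not read as a result about the list. Of 6 further PRC2 subunits tested, namely the histone chaperones RBBP4 and RBBP7 and the accessory proteins PHF1, EPOP, LCOR and LCORL, 1 rose and 1 fell in N2B27, and 1 rose and 4 fell in both E8 and mTeSR. PHF1, the third Polycomb-like protein, was the one that rose (0.76, 0.95 and 0.86 in N2B27, E8 and mTeSR). LCOR, whose locus also makes a PRC2-binding protein, was called in all 3 media, with 156 ± 39.8 CPM (SD, n = 6) in naive cells and 77.1 ± 1.43, 45.1 ± 8.17 and 67.0 ± 0.271 CPM (SD, n = 2 each) in N2B27, E8 and mTeSR, log2 differences of -1.02, -1.80 and -1.22 (edgeR adjusted p = 9.99e-06, 6.74e-10 and 8.69e-07). EPOP was called in E8 only (-1.18, adjusted p = 0.00295), with -0.27 in N2B27 and -0.23 in mTeSR that did not pass. The median log2 difference of the 6 was -0.28, -0.93 and -0.37, where that of all genes was -0.031, 0.0024 and -0.023.

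PRC1, which compacts chromatin and ubiquitinates histone H2A, moved in both directions. Of 26 genes listed 24 were tested, and 9 rose and 5 fell in N2B27, 7 rose and 6 fell in E8, and 8 rose and 4 fell in mTeSR. These are 14, 13 and 12 of 24, beside 45.1%, 49.9% and 45.4% of all genes. PHC1, a Polyhomeotic subunit that links PRC1 complexes together, rose most, from 76.1 ± 9.61 CPM (SD, n = 6) in naive cells to 379.9 ± 32.2, 507 ± 51.8 and 435 ± 59.2 CPM (SD, n = 2 each), log2 differences of 2.32, 2.74 and 2.51 (edgeR adjusted p = 2.76e-19, 1.81e-21 and 3.24e-20). CBX7, the main reader of the PRC2 mark in embryonic stem cells, rose by 1.31, 1.5 and 1.22, and AUTS2, a partner of activating PRC1 forms, by 1.00, 1.7 and 1.47. RING1, a ubiquitin ligase subunit, fell by 1.41, 1.31 and 0.93 on the log2 scale. BMI1 (-0.81, -1.04 and -0.62) and PCGF6 (-0.97, -0.84 and -1.04), which define different PRC1 forms, also fell. CBX2 rose in E8 and mTeSR (0.43 and 1.10) and had 0.36 in N2B27, which did not pass. BCORL1 rose in N2B27 and mTeSR (1.61 and 1.09), with -0.45 in E8 that did not pass, and YAF2, with means of only 0.538 to 6.19 CPM, rose in N2B27 (1.57), fell in E8 (-1.91) and had 0.10 in mTeSR. The median over the 24 genes was 0.16, 0.018 and 0.12.

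Of 10 genes that oppose Polycomb silencing, such as histone demethylases and the KMT2 methyltransferases of enhancers, 1 rose and 2 fell in N2B27, and 2 rose and 2 fell in both E8 and mTeSR, or 3, 4 and 4 of 10 beside the same shares of all genes. KMT2C fell in all 3 media, from 349.7 ± 83.9 CPM (SD, n = 6) to 123 ± 5.94, 99.4 ± 0.549 and 149 ± 21.3 CPM (SD, n = 2 each), log2 differences of -1.51, -1.82 and -1.23 (edgeR adjusted p = 3.18e-09, 7.2e-11 and 1.48e-07). KDM6B, which removes the PRC2 mark, fell in E8 (-1.98, adjusted p = 0.00116) and had -0.039 in N2B27 and 0.19 in mTeSR. KDM6A, the other demethylase of that mark in the list, rose in E8 from 27.9 ± 6.58 CPM (SD, n = 6) to 55.8 ± 2.00 CPM (SD, n = 2), a log2 difference of 0.99 (adjusted p = 3.35e-06), and had 0.24 in N2B27 and -0.17 in mTeSR, which did not pass. The median over the 10 genes was -0.062, 0.007 and 0.011.

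**Figure D5:**
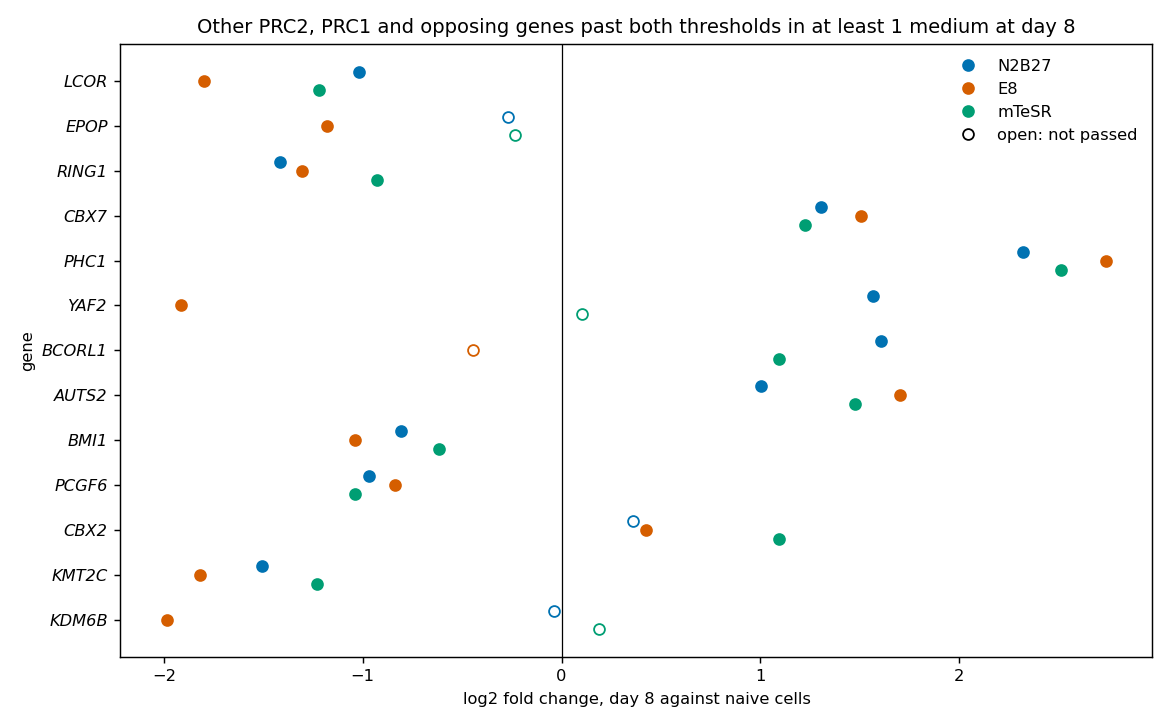
Log2 fold change at day 8 against naive cells (x axis) for the other PRC2, PRC1 and opposing genes called in at least 1 medium, with colours for N2B27, E8 and mTeSR and open circles where the adjusted p was not under 0.05. PHC1 lies furthest to the right (2.32 to 2.74), KDM6B in E8 furthest to the left (-1.98), and YAF2 is on opposite sides in N2B27 and E8.

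HOX genes, the classical Polycomb targets, were sparse in these libraries. Of 39 HOX genes 16 passed the filter on low counts, and 10 of the 16 had a mean under 1 CPM in the naive libraries and also in the E8 libraries of day 8, so that the numbers moving in each direction depend on which genes the filter let through and are not read as a direction of HOX genes. At day 8 against naive cells 10 rose and 2 fell in N2B27, 4 fell and none of the others passed in E8, and 5 rose and 2 fell in mTeSR, where 45.1%, 49.9% and 45.4% of all genes passed. HOXB6 was at 0 in all naive libraries and had 4.17 ± 0.305 CPM (SD, n = 2) in N2B27 at day 8, and HOXA10 went from 0.264 to 7.47 CPM. HOXB2 and HOXD13 moved the other way and fell in all 3 media. HOXB2 had the largest fall, from 25.2 ± 7.26 CPM (SD, n = 6) to 1.15 ± 0.0382 CPM (SD, n = 2) in E8 (log2 -4.44, edgeR adjusted p = 5.38e-12), and HOXD13 went from 7.22 ± 2.77 CPM (SD, n = 6) to 0.842 ± 0.136 CPM (SD, n = 2) there (-3.10, adjusted p = 9.86e-07). The endoderm, trophectoderm and fibroblast marker sums given above were highest in N2B27 at day 8. Their part in the HOX values was not tested, and no binding or histone mark was measured.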

How the data were processed

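RNA was polyadenylated RNA sequenced with the QuantSeq 3′ kit. Per the submitters' processing notes and the study's methods, the authors processed reads with the nf-core RNA-seq workflow (FastQC 0.11.9, STAR 2.7.10a, Salmon 1.9.0) on hg38 and deposited 1 table of estimated counts per gene, which holds whole numbers. The annotation release, the strand setting and the rounding are not given in the sources used here. Groups came from the labels. Here the deposited counts were tested in R 4.3.3 with edgeR 4.0.16 (filterByExpr, TMM, quasi-likelihood test) over 16674 genes, in 1 fit with 16 combinations of medium and day for comparisons with naive cells and 1 with all 19 groups for the others. P-values were adjusted by Benjamini-Hochberg with a threshold of 0.05, and 95% intervals are normal intervals from the SE. SE comes from the fitted F statistic. No library was a duplicate of another. DESeq2 1.42.0, other scalings, filters and covariates and each library left out in turn were alternatives. Replicate numbers did not pair the libraries: over 171 pairs of groups the correlation of deviations ran from -0.35 to 0.26, with a median of 0.0031. The scripts were tested on simulated data. The PRC2 genes and all gene lists were chosen with earlier results of these data known. Besides the 8 genes, named genes were those of the Polycomb lists called at day 8, the largest changes of a list, and the 2 genes most correlated with each member. A few list members outside that rule (PHF1, KDM6A, HOXA10, HOXD13, the markers COL1A1, COL1A2 and GATA3) were named after their values were seen. The listed PRC2 inhibitor EZHIP is not analysed here, and CBX8 and PHC2 were below the filter. Of the PRC1 list, 1 further gene is not reported here and is left out of its counts.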

Additional observations from a re-analysis of the deposited data

Results flagged for a closer look

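PHF19 in naive Geltrex replicate 2 of Ex2 had 35.0 CPM and stood apart from the other 5 naive libraries: its gap to the nearest was 0.64 of the range of the 6, above Dixon's 95% critical value, which chance exceeds in about 1 of 20 groups, and 16 groups of libraries were tested here (8 genes in naive cells and in N2B27 day 4). The course of JARID2 over days differed between E8 and N2B27 (edgeR adjusted p = 0.000167) and between mTeSR and N2B27 (edgeR adjusted p = 0.0435), and the second was lost without any of 10 of its 12 libraries. The change of SUZ12 from naive Geltrex cells to N2B27 day 4 differed between the experiments by 0.38 on the log2 scale, a test chosen after the levels of both experiments had been seen.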

How the results depend on the processing

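No difference that passed changed its direction under another setting. Over the 352 single results, 4818 values under another setting stayed on the same side of the threshold, 234 no longer passed and 68 newly passed. Values that passed in neither setting changed sign 184 times, with sizes up to 0.53. Against naive cells, 78 genes and comparisons passed and 72 to 78 did with 1 library left out, and 22 to 28 were called. With RLE scaling, plain library totals or a filter of more than 10 counts 76 passed, as with DESeq2 (75 of them shared), and 63 did with no filter. With experiment as a covariate 81 passed, 83 did against the naive libraries of their own experiment, and with the leading direction of differences between replicates as a covariate 75. In fits to the compared libraries alone 57 passed. Such fits passed 12 between media, 8 of them also in the main fit, and 10 between consecutive days, 6 of them also in the main fit. With plain library totals or the library score as covariate 18 passed between media. Between media 12 to 16 passed with 1 library left out, between consecutive days 8 to 14 (4 with no filter), between experiments 2 to 3, and for coating 0 in each case. For the course by medium 2 passed, 1 to 3 with 1 library left out and 1 each with RLE scaling, plain library totals and the filter of more than 10 counts. With no filter 2 passed, both in E8, where EZH2 was gained, and JARID2 in mTeSR was lost. DESeq2 and the fit to compared libraries alone were not run for the course. With the replicate number as a block 78 passed against naive cells, 77 of them the same, and 15 between media, 12 between days, 3 between experiments and 2 for the course passed. These libraries share only a number, and 30 of 38 were nearest to the other library of their group. The EZH2 to EZH1 difference was -1.17 with naive libraries of Ex1 only and -0.88 to -0.43 with 1 library left out. The cause of these changes was not tested. At 27 to 111 counts per library, EZH1 had the widest intervals, so that its differences were the least precisely estimated of the 8 genes.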
